A study of Homo sapiens with 6 samples.

Results

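The genes described here are 10 target genes of the unfolded protein response, most of which encode chaperones and folding factors of the endoplasmic reticulum (ER). They are HSPA5, DNAJB9, DNAJC3, SDF2L1, HSP90B1, CALR, PDIA4, HERPUD1, EDEM1 and XBP1. They were taken by gene symbol as known targets of the transcription factors ATF6 and XBP1, and are 10 of the 57773 genes in the deposited counts. RNA had been sequenced from SW872, an established human liposarcoma cell line, to find the transcripts that Apatinib alters. The Apatinib group (3 samples) was exposed to 18 μM Apatinib, an inhibitor of the VEGFR2 tyrosine kinase, and was collected at 24 h. The control group (3 samples) is labelled as untreated, and a solvent control is not named for it. Both groups were grown in RPMI-1640 with serum, and all 6 samples come from this line alone, measured in bulk, so that a change in each cell and a change in the mix of cell states cannot be told apart. The counts summed to 18081919, 17275850 and 17352210 in Apatinib replicates 1, 2 and 3 and to 17043314, 18139437 and 22067558 in control replicates 1, 2 and 3.

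The unfolded protein response adjusts the folding capacity of the ER to its load of unfolded proteins. Its sensors are ATF6, which is cleaved in the Golgi to release a transcription factor, IRE1 (encoded by ERN1), which splices the mRNA of XBP1 into its active form, and PERK (encoded by EIF2AK3), which slows translation and raises the translation of ATF4. ATF6 and spliced XBP1 switch on chaperones, folding enzymes and the machinery that removes misfolded proteins from the ER, and secretory mesenchymal cells, which export collagen and fibronectin, carry such chaperones in abundance.

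Values are given as CPM, a gene's counts relative to the total of its sample after scaling by TMM, a normalization for library composition, or as the authors' FPKM, which also take transcript length into account and were used wherever levels of different genes are compared. A gene was called when edgeR's quasi-likelihood test gave a false discovery rate (FDR) under 0.05 over all tested genes and the log2 fold change was above 0.5 or below -0.5. The label of the cells was compared with markers. Of 8 mesenchymal markers all had counts in every sample, with a summed level between 4399 and 6251 CPM that came mostly from FN1, the fibronectin gene. Of 8 adipocyte markers, PPARG led with 50.0 to 64.2 CPM, and CEBPA, FABP4 and ADIPOQ, which mark mature adipocytes, were at 0 counts in every sample, although CEBPA had deposited FPKM values of 0.0579 to 0.319, so that its 0 lies in the counts alone. Blood cell markers summed to at most 5.72 CPM, led by CD14, with PTPRC and LYZ at 0 throughout, and the endothelial markers in the table to at most 17.6 CPM, led by TEK. Epithelial markers summed to 95.7 to 158 CPM, led by KRT18, with EPCAM at no more than 0.40 CPM. The mesenchymal sum was at least 5354 CPM in the Apatinib samples and at most 4565 CPM in the controls, and the epithelial sum was also higher in each Apatinib sample (at least 126 CPM) than in each control (at most 112 CPM). The adipocyte sum was 65.9, 90.6 and 70.2 CPM with Apatinib and 63.6, 62.5 and 61.5 CPM in the controls, higher in each Apatinib sample. The blood cell sum was lower in each Apatinib sample (at most 4.18 CPM) than in each control (at least 4.73 CPM). Of the markers tested, edgeR called S100A6, COL3A1, LPL, KRT8 and VWF higher (log2 fold changes 1.03, 1.18, 0.84, 0.71 and 1.52) and CDH5 lower (-1.22), with FDR from 0.00613 to 0.0386. The endothelial sum thus held VWF and CDH5 with calls in opposite directions, both at no more than 3.03 CPM. S100A6 was called in every fit with one sample left out. Without control 1 the calls of the other 5 were lost, without control 2 those of LPL, KRT8, VWF and CDH5, without Apatinib 1 those of KRT8, VWF and CDH5, without Apatinib 3 that of VWF and without control 3 that of CDH5. The part of these marker levels in the results was not tested.

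Some libraries stood apart. Controls 1 and 2 were far closer to each other than other replicates, with a mean chi-square of 2.27 per gene between their counts, against 22.4 and 22.9 between each of them and control 3. Sampling noise alone gives about 1. They were kept as separate samples after their labels, but a value above counting noise does not show that they came from separate cultures, and they may be technical repeats. All FDR values given for 3 controls carry this doubt. Among the Apatinib samples, replicate 2 lay farther from replicates 1 and 3 (44.5 and 34.3) than these lay from each other (18.2). Apatinib 1 and 3 were nearer to control 3 (40.5 and 26.5) than to Apatinib 2 by this measure.

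Promoter sequences are shown for the genes whose start region held a known response element of this pathway, to show where it lies. The genes were chosen as targets of the factors that bind such elements, so that its presence is a description and not a separate finding. The windows are from RefSeq (GRCh38.p14), run from 250 bases before to 50 bases after the gene's start, and were found for all 10 genes. The ER stress response element (ERSE), searched on both strands as CCAAT and CCACG with 9 bases of any kind between them, was found in the windows of 4 of the 10 genes: HSPA5, HSP90B1, CALR and XBP1. It occurred in 27 of the 35116 windows in the table (0.0769%), and in 4 of 60 other ER genes with a window (CANX, CRELD2, ERO1B and PDIA6). The related ERSE-II, ATTGG and CCACG with 1 base between them, was found in HERPUD1 and SDF2L1 and in 19 windows in all (0.0541%). Of the 60 other ER genes, 1 held it (HYOU1). In the lines that follow, capitals mark these elements, and in HERPUD1 also a run that lacks the last letter of the ERSE, in the direction of the gene, so that a match on the opposite strand reads as its reverse complement. The windows lie at chr9:125241294-125241593 (minus strand), chr22:28800520-28800819 (minus strand), chr16:56931892-56932191 (plus strand) and chr12:103930160-103930459 (plus strand), and the shorter stretches at chr19:12938363-12938422 and chr22:21642089-21642148 (both plus strand).
HSPA5: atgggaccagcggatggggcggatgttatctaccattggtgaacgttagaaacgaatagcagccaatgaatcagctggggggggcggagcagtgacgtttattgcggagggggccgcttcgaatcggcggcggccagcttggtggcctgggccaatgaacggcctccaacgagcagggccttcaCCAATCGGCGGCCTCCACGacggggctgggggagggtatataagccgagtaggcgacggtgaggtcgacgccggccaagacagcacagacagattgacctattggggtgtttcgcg
XBP1: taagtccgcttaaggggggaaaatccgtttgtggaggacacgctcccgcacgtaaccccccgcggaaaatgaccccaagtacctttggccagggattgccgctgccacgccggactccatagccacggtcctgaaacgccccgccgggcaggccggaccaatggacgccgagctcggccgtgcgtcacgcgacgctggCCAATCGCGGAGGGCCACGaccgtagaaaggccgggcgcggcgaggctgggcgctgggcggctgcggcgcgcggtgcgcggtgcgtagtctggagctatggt
HERPUD1: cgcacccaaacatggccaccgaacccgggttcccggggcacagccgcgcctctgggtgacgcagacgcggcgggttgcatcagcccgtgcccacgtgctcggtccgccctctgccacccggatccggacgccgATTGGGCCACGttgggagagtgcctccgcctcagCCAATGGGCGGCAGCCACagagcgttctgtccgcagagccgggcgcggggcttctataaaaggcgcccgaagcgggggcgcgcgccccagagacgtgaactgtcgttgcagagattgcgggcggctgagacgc
HSP90B1: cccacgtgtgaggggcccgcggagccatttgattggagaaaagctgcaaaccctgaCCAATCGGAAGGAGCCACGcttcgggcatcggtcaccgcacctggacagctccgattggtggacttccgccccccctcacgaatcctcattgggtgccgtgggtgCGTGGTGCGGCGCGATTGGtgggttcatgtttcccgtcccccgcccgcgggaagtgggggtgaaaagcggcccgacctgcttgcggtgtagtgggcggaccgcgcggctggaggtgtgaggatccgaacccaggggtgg
CALR: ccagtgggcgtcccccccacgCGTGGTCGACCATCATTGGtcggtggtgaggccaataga
SDF2L1: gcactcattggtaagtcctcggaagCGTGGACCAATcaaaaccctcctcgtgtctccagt

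The ERSE of HSPA5 began 66 bases and that of XBP1 52 bases before the start. XBP1 and PDIA4 each had another start with its own window, and these windows held no ERSE and no ERSE-II. HSP90B1 held 2 that do not overlap, the first beginning 194 bases before the start and the second, on the opposite strand, 89 bases before it. CALR had its match on the opposite strand, from 225 bases before the start. In HERPUD1 the ERSE-II began 117 bases before the start, and a separate run that lacks only the last letter of the ERSE (CCAAT, 9 bases and CCAC, found in 0.316% of all windows and within every ERSE) began 83 bases before it. The window of HERPUD1 also held the core TGATGNAA of the element that ATF4 binds, on the opposite strand, as did 3.62% of all windows and 4 of 13 genes of the PERK-ATF4 list with a window. The CCAAT letters alone were present in all 10 genes, in 37 of the 60 other ER genes and in 34.6% of all windows. The core TGACGTG of the element bound by XBP1 and ATF6, present in 1.97% of windows and in 11 of the 60 other ER genes, was not among the letters of any of the 10. DNAJB9, DNAJC3, PDIA4 and EDEM1 held no ERSE and no ERSE-II in this stretch. These are matches of letters and do not show that a factor was bound.

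After Apatinib, XBP1 and HERPUD1 rose, and none of the other 8 genes was called. All 10 genes passed the filter on low counts. The 2 genes called higher compare with 5.97% of all 16290 tested genes called higher, and no gene of the 10 was called lower, against 5.48% of all tested genes. In either direction, 2 of 10 stand beside 11.5% overall. With edgeR, 2 of the 10 (HSP90B1 and DNAJC3) were lower at an unadjusted p under 0.05, and DESeq2 also called 2 higher and none lower. The median log2 fold change of the 10 genes was 0.013, beside 0.0028 for all tested genes, with 6 values above 0 and 4 below, or 4 above and 6 below when samples were scaled by total counts. The mean of the 10 log2 CPM values was 7.76, 7.72 and 7.72 in Apatinib replicates 1, 2 and 3 and 7.59, 7.61 and 7.69 in the controls. It was higher in every Apatinib sample. Without XBP1 and HERPUD1, an omission chosen after the values were seen, the groups overlapped, with 7.88, 7.74 and 7.89 against 7.83, 7.86 and 7.95, control 3 the highest and Apatinib 2 the lowest. In 4 of the 10 the groups did not overlap in CPM (HSPA5, HERPUD1 and XBP1 higher, DNAJC3 lower), where 33.2% of all tested genes were without overlap. The number of calls depended on single libraries. Without control 1, without control 2, or with their counts summed as 1 sample, none of the 10 was called, and the calls over all genes went from 1866 to 275, 300 and 292. Without Apatinib 1 the calls over all genes numbered 795, and XBP1 and HERPUD1 were called. Without Apatinib 3, 4 of the 10 were called, with DNAJC3 and HSP90B1 lower, beside 2030 of 16768 tested genes.

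**Figure D1:**
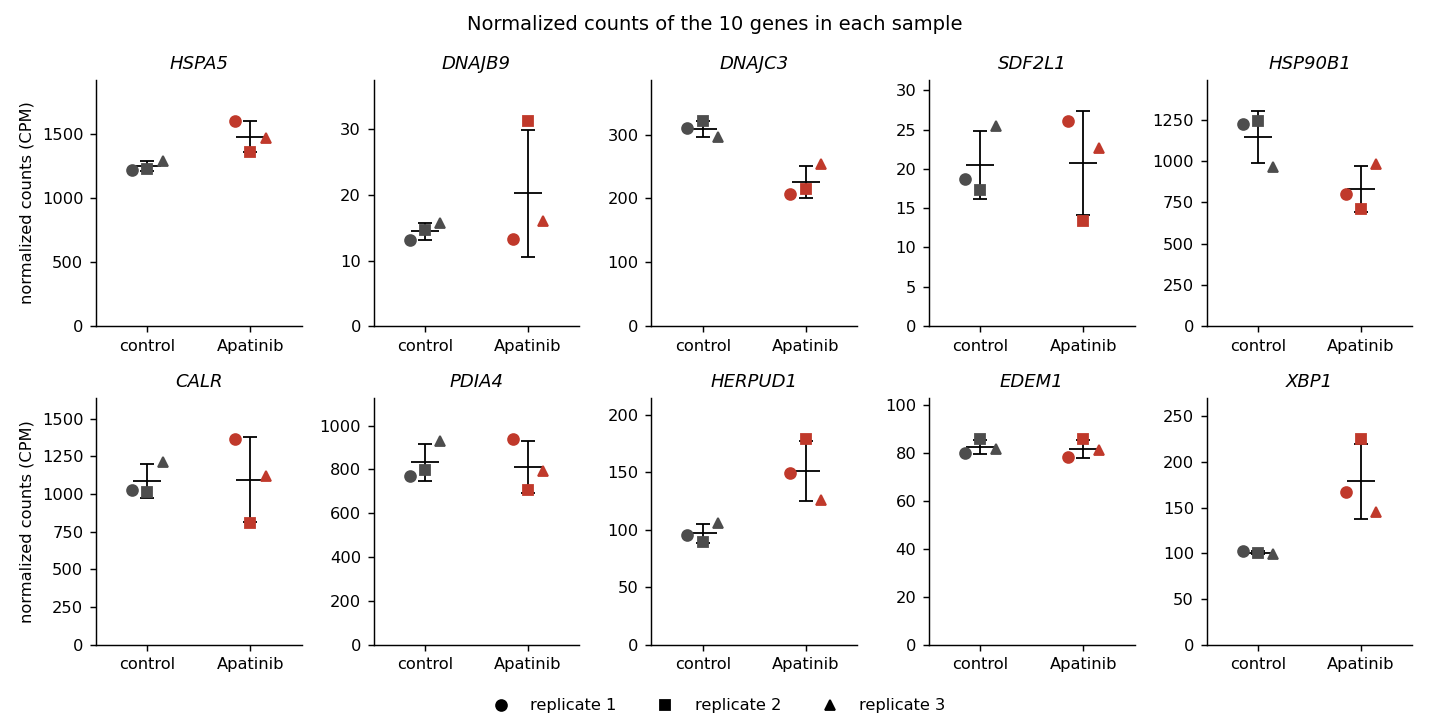
Normalized counts (CPM, each axis starting at 0) of the 10 genes in the 3 control (grey) and 3 Apatinib (red) samples, with the marker shape giving the replicate and bars the mean ± SD. The XBP1 values of the controls lie between 98.7 and 103 CPM, all below the 3 Apatinib samples.

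The 10 transcripts covered a wide range of abundance. In the control group, CALR was the most abundant at 461 ± 35.1 FPKM (SD, n = 3), followed by HSP90B1 at 288 ± 46.0, HSPA5 at 223 ± 4.83 and PDIA4 at 199 ± 15.1 FPKM. HERPUD1 (41.0 ± 4.42 FPKM), XBP1 (41.0 ± 2.25 FPKM) and DNAJC3 (38.8 ± 2.46 FPKM) formed a middle group that did not differ beyond its spread, and SDF2L1 (16.4 ± 2.97 FPKM), EDEM1 (10.4 ± 0.385 FPKM) and DNAJB9 (3.79 ± 0.159 FPKM) were the lowest. By mean FPKM over all samples, CALR ranked 71 and DNAJB9 9282 among the tested genes. The first 4 genes made up 88.2% to 88.8% of the summed FPKM of the 10 in the controls, 87.1% in Apatinib 1 and 3, and 80.0% in Apatinib 2.

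With Apatinib this order was altered for HSPA5 and HSP90B1. The FPKM of HSPA5 divided by that of HSP90B1 was 0.714, 0.703 and 0.953 in control replicates 1, 2 and 3 and 1.43, 1.39 and 1.08 in Apatinib replicates 1, 2 and 3. HSP90B1 was thus the more abundant of the pair in every control and HSPA5 in every Apatinib sample, a comparison chosen after the values were seen and given without a test. In the middle group, XBP1 was at 79.0 ± 26.4, HERPUD1 at 60.7 ± 11.8 and DNAJC3 at 28.7 ± 3.67 FPKM (SD, n = 3) after Apatinib. DNAJC3 thus lay below XBP1 and HERPUD1, which did not differ beyond their spread. CALR remained first (465 ± 98.0 FPKM) and DNAJB9 last (5.54 ± 2.88 FPKM). The summed FPKM of the 10 was 1338 ± 110 with Apatinib and 1322 ± 24.2 in the controls, which differed by less than the spread.

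**Figure D2:**
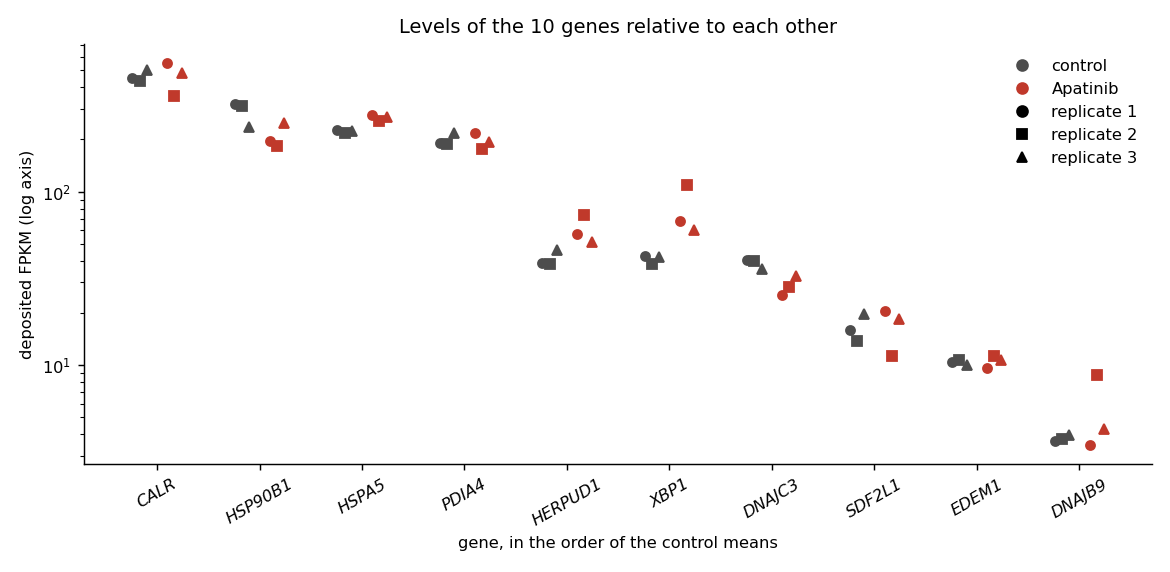
Deposited FPKM (log axis) of the 10 genes, ordered by their control means, in control (grey) and Apatinib (red) samples, with marker shape giving the replicate. HERPUD1, XBP1 and DNAJC3 share one level in the controls (38.8 to 41.0 FPKM on average). After Apatinib DNAJC3 lies below HERPUD1 and XBP1, whose values overlap.

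HSPA5 (ENSG00000044574) encodes BiP, the HSP70 chaperone of the ER lumen, which binds unfolded chains and also keeps the sensors of the response inactive. Its level was 1600, 1357 and 1467 CPM in Apatinib replicates 1, 2 and 3 and 1220, 1225 and 1290 CPM in control replicates 1, 2 and 3. Every Apatinib sample lay above every control, by a narrow margin between Apatinib 2 and control 3. Apatinib over control gave a log2 fold change of 0.24 (standard error 0.120, 95% interval -0.02 to 0.51) and was not called (FDR = 0.194 with edgeR). The interval reaches a fold of 1.42 at most, so that larger increases lie outside it. When one sample was left out, the value stayed between 0.18 and 0.31.

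Among the genes described here, none of the 3 that encode co-chaperones of BiP was called. DNAJB9 (ENSG00000128590) encodes ERdj4, a J-domain protein that helps BiP bind to IRE1 and to misfolded proteins. It had 229, 555 and 281 counts in Apatinib replicates 1, 2 and 3 and 227, 266 and 343 in the controls, or 13.3, 31.3 and 16.1 CPM against 13.1, 14.6 and 15.7 CPM. Only Apatinib 2 stood clear of the controls, and Apatinib 1 lay among them. The log2 fold change of 0.48 (standard error 0.267, FDR = 0.246 with edgeR) was 0.03 without Apatinib 2. The exons of DNAJB9 overlap those of THAP5 and PNPLA8 on the opposite strand in GENCODE 29, genes with up to 611 and 1044 counts in a sample, and because the strand setting of the counting is not given in the sources used here, the reads of these genes cannot be told apart with certainty.

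DNAJC3 (ENSG00000102580) encodes p58IPK, a J-domain co-chaperone that also restrains PERK. Its values were 208, 214 and 255 CPM in the Apatinib samples and 310, 322 and 296 CPM in the controls. All 3 Apatinib samples lay below all 3 controls. The log2 fold change was -0.46 (standard error 0.122, 95% interval -0.72 to -0.19), with an edgeR FDR of 0.0345 that passed the limit while the fold change did not. Without Apatinib 3, the sample nearest to the controls, the log2 fold change was -0.55 and the gene was called lower (FDR = 0.0267 with edgeR). The FDR limit was missed without Apatinib 1 (0.0946), Apatinib 2 (0.0584), control 1 (0.142) or control 2 (0.169), with controls 1 and 2 summed (0.147), and with limma on log2(FPKM + 1) (0.0659).

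SDF2L1 (ENSG00000128228) encodes a small ER protein that works with J-domain proteins to keep BiP substrates soluble. It had 26.1, 13.4 and 22.7 CPM in Apatinib replicates 1, 2 and 3 and 18.8, 17.3 and 25.4 CPM in the controls. The samples of both groups were mixed, with Apatinib 1 the highest and Apatinib 2 the lowest of the 6. The log2 fold change was 0.01 (95% interval -0.50 to 0.52, FDR = 0.978 with edgeR). Its sign depended on single samples, with -0.19 without Apatinib 1, -0.05 without Apatinib 3, -0.05 without control 1 and -0.10 without control 2, against 0.25 without Apatinib 2.

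HSP90B1 (ENSG00000166598) encodes GRP94, the HSP90 chaperone of the ER, which completes the folding of clients such as integrins and Toll-like receptors. It was measured at 803, 707 and 985 CPM in Apatinib replicates 1, 2 and 3 and at 1227, 1246 and 967 CPM in control replicates 1, 2 and 3. Apatinib 1 and 2 lay below all controls, whereas Apatinib 3 and control 3 met at nearly the same level. The log2 fold change of -0.46 (standard error 0.155, 95% interval -0.80 to -0.13) was not called (FDR = 0.0684 with edgeR). With DESeq2 (-0.46, FDR = 0.0290) and with no filter on low counts (-0.45, FDR = 0.0215 with edgeR) the FDR passed its limit while the fold change did not. It was called lower without Apatinib 3 (-0.60, FDR = 0.0401 with edgeR) and without control 3 (-0.57, FDR = 0.0323 with edgeR). HSP90B1 and HSPA5, both with an ERSE before the start, had fold changes of opposite sign, and neither was called.

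CALR (ENSG00000179218) encodes calreticulin, a lectin chaperone that holds calcium and binds glycoproteins with a trimmed sugar chain. Its values were 1364, 806 and 1119 CPM in the Apatinib samples and 1030, 1014 and 1214 CPM in the controls. Apatinib 1 was above and Apatinib 2 below every control, and the mean of both groups was nearly the same (1096 ± 280 against 1086 ± 111 CPM, SD, n = 3). Its log2 fold change was 0.01 (95% interval -0.37 to 0.40, FDR = 0.967 with edgeR), and it was -0.17 without Apatinib 1, -0.03 without control 1, -0.04 without control 2 and 0.20 without Apatinib 2.

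PDIA4 (ENSG00000155660) encodes ERp72, a disulfide isomerase that forms and rearranges disulfide bonds. It lay between 704 and 937 CPM with Apatinib and between 771 and 928 CPM in the controls. Here too Apatinib 1 was the highest and Apatinib 2 the lowest of the 6 samples. The log2 fold change of -0.03 (95% interval -0.34 to 0.27, FDR = 0.892 with edgeR) was 0.06 without Apatinib 2 and 0.05 without control 3.

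Of the genes that act in ER-associated degradation, the removal of misfolded proteins to the proteasome, one rose and one was flat. HERPUD1 (ENSG00000051108) encodes Herp, a membrane protein that organizes the HRD1 ubiquitin ligase complex. It had 2558, 3163 and 2199 counts in Apatinib replicates 1, 2 and 3 and 1648, 1629 and 2307 in the controls, and 149, 179 and 126 CPM against 95.1, 89.6 and 106 CPM. After scaling for depth every Apatinib sample lay above every control, with Apatinib 2 the highest. HERPUD1 rose by a log2 fold change of 0.64 (standard error 0.144, 95% interval 0.33 to 0.96, FDR = 0.0188 with edgeR), a fold of 1.56. The rise stayed between 0.51 and 0.76 when one sample was left out. Its call was lost without control 1 (FDR = 0.0957 with edgeR), without control 2 (0.105) and with these summed (0.0978), and on log2(FPKM + 1) with limma (FDR = 0.0631), and the FDR ranged from 0.000356 to 0.194 over the alternatives.

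EDEM1 (ENSG00000134109) encodes a mannosidase-like protein that marks glycoproteins for degradation. Its level ranged from 78.3 to 85.7 CPM with Apatinib and from 79.8 to 85.6 CPM in the controls. Its coefficient of variation within the Apatinib group, 4.55%, was the lowest of the 10 genes. Its log2 fold change was -0.01 (95% interval -0.26 to 0.23, FDR = 0.957 with edgeR), with 0.02 without Apatinib 1 and 0.01 without control 2.

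XBP1 (ENSG00000100219) is the transcription factor of the IRE1 branch and, as a target of ATF6, also one of the response's products. It had 2868, 3984 and 2528 counts in Apatinib replicates 1, 2 and 3 and 1776, 1832 and 2155 in the controls. In CPM these were 167, 225 and 145 against 103, 101 and 98.7, so that the controls were close together (coefficient of variation 1.89%) and every Apatinib sample lay above them. XBP1 rose by a log2 fold change of 0.83 (standard error 0.156, 95% interval 0.49 to 1.17, FDR = 0.0104 with edgeR), a fold of 1.78, the largest change of the 10. The value lay between 0.63 without Apatinib 2 and 0.96 without Apatinib 3. The call was lost by a small margin without control 1 (FDR = 0.0561 with edgeR), without control 2 (0.0542) and with these summed (0.0552), at nearly the same fold change (0.84, 0.83 and 0.83), and the FDR ranged from 1.108e-06 to 0.167 over the alternatives. Counts per gene do not separate spliced from unspliced XBP1 mRNA, so that the activity of IRE1 was not measured. Of the row named as its pseudogene, XBP1P1, no sample had more than 17 counts. XBP1 was the only called gene among the 4 with an ERSE in the window, and HERPUD1 the only one of the 2 with an ERSE-II. Of all tested genes 11.5% were called. A link between these elements and the fold changes was not tested.

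**Figure D3:**
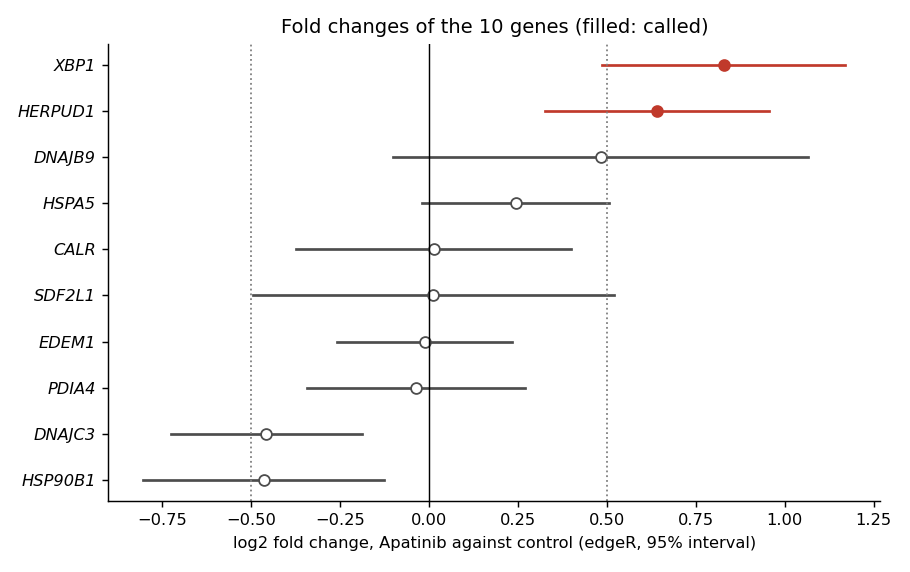
Log2 fold change of each gene, Apatinib against control, with the 95% interval from edgeR; filled points are called, and dotted lines mark the fold change limits of -0.5 and 0.5. XBP1 (0.83) and HERPUD1 (0.64) are the called genes, and the intervals of DNAJC3 and HSP90B1 lie below 0.

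Within the Apatinib group the 10 genes divided by replicate 2. This library was the highest of the 6 samples for DNAJB9, HERPUD1, EDEM1 and XBP1, although for EDEM1 control 2 was nearly level (85.7 against 85.6 CPM). Apatinib 2 was the lowest for SDF2L1, HSP90B1, CALR and PDIA4. It was thus an extreme for 8 of the 10 genes, where it was one for 44.1% of all tested genes. Apatinib 1 was an extreme for 6 of the 10 genes and for 48.7% of all tested genes, and Apatinib 3 for none of the 10 and for 20.2%. Set against the mean of the controls on the log2 scale, DNAJB9 was at 1.12, XBP1 at 1.16 and HERPUD1 at 0.89 in Apatinib 2, while HSP90B1 was at -0.69, SDF2L1 at -0.60, CALR at -0.43 and PDIA4 at -0.24. In Apatinib 1 the last 3 of these were at 0.37, 0.33 and 0.18. The share of all counts taken by the 10 genes was 0.443% in Apatinib 2, 0.508% and 0.504% in Apatinib 1 and 3, and 0.492% to 0.497% in the controls. The same library also carried the highest levels of the sensor gene ERN1 and of DDIT3.

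**Figure D4:**
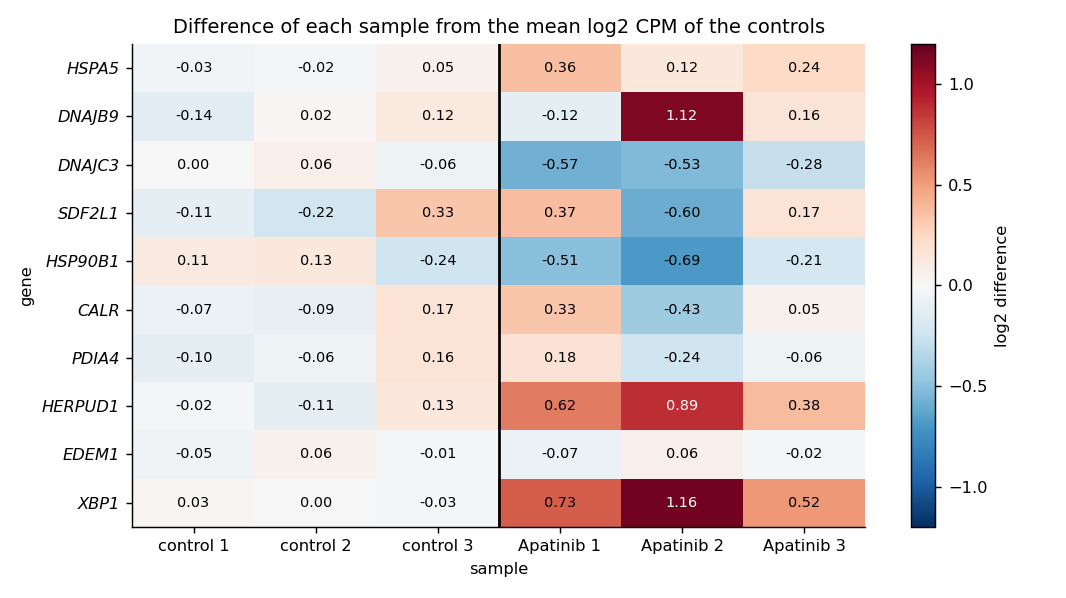
Difference of each sample from the mean log2 CPM of the 3 controls for the 10 genes, with red for higher and blue for lower values. In Apatinib 2, DNAJB9 (1.12), XBP1 (1.16) and HERPUD1 (0.89) are high while HSP90B1 (-0.69), SDF2L1 (-0.60) and CALR (-0.43) are low.

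The genes whose profile over the 6 samples was most like that of HSPA5, by the root mean square difference of centred log2 CPM, were PGAP2 (0.0193), CD59 (0.0214), ARHGAP17 (0.0235), USF1 (0.0283) and ACOX3 (0.0299). None of these was called, and their log2 fold changes lay between 0.21 and 0.27. The exons of PGAP2 overlap those of NUP98 on the opposite strand, a gene with up to 5908 counts, so that its counts are uncertain. No other gene of the 10 was close to HSPA5 by this measure. PDIA4 was the nearest, at 0.161, with 3151 of the 10329 genes of at least 10 CPM as near or nearer, and DNAJB9 was the farthest, at 0.447.

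The other genes of the response were grouped in 5 lists of 85 genes, all tested. Of these, 4 were called higher and 3 lower, 7 of 85 beside 11.5% of all tested genes, and their median log2 fold change was 0.03. The 4 higher genes all belonged to the PERK-ATF4 arm. The count of 7 was 4 without Apatinib 1, 2 without control 1, without control 2 or with these summed, and 12 without Apatinib 3. In the fit without Apatinib 3, 2030 of 16768 tested genes were called.

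Among the 6 genes of sensors and the proteases that cut ATF6, edgeR and DESeq2 called none, and 1 (ERN1) had an unadjusted p under 0.05. ERN1 was at 41.6, 127 and 38.0 CPM in Apatinib replicates 1, 2 and 3 and at 38.2, 35.2 and 30.5 CPM in the controls. The high value was that of Apatinib 2, and the log2 fold change of 1.00 (FDR = 0.0960 with edgeR) was 0.21 without it, while it was 1.29 and called without Apatinib 3 (FDR = 0.0441 with edgeR). ATF6 had a log2 fold change of 0.15 (FDR = 0.467 with edgeR), or 0.025 without Apatinib 2, and EIF2AK3 one of -0.20 (FDR = 0.340 with edgeR). None of the 22 other ER chaperones and foldases was called by edgeR or DESeq2 (11.5% of all tested genes were called by edgeR), with 3 at an unadjusted edgeR p under 0.05, a median of -0.0048 and a range from -0.41 (DNAJC10) to 0.36 (SIL1). SIL1, an exchange factor of BiP, was called higher without Apatinib 3 (0.50), and DNAJC10, a J-domain disulfide reductase, was called lower without control 3 (-0.55). The median was -0.10 without Apatinib 1 and 0.08 without Apatinib 2.

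In the list of ER-associated degradation, 2 of 20 genes were called, both lower, and the median was -0.09. Of all tested genes 5.48% were called lower and 11.5% in either direction. The difference from these shares was not tested, and the 2 calls are given as values of single genes. EDEM3, a relative of EDEM1 that trims mannose from glycoproteins, fell by 0.84 on the log2 scale (FDR = 0.0194 with edgeR), and its call was lost without Apatinib 1 (FDR = 0.0616), control 1 (0.0912) or control 2 (0.1004). The counts of DERL3, a derlin of the retrotranslocation channel, were 35, 23 and 37 in the Apatinib samples and 63, 50 and 90 in the controls. It fell by 0.95 on the log2 scale (FDR = 0.0421 with edgeR), and no fit with one sample left out kept its call (edgeR FDR 0.0540 to 0.141). On the authors' FPKM with limma its difference was -0.26 on the log2(FPKM + 1) scale (FDR = 0.423) and -0.45 on the log2(FPKM + 0.1) scale (0.445), and EDEM3 was not called there either (0.0713 and 0.0703). The exons of DERL3 overlap those of SMARCB1 on the opposite strand. In ER import and the secretory pathway, 1 of 23 genes was called (lower), no more than the share over all tested genes (5.48% lower, 11.5% in either direction). SEC62, a subunit of the translocon complex, fell by 0.67 on the log2 scale (FDR = 0.0357 with edgeR), and only the fit without control 3 kept the call among those with one sample left out (edgeR FDR from 0.0560 to 0.160 in the others). Its call was also lost with scaling by total counts (FDR = 0.0501) and with limma on log2(FPKM + 1) (0.103). In this list SPCS3 and SSR1, named after their values were seen, were called lower without Apatinib 3 (-0.67 and -0.52).

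In the PERK-ATF4 arm 4 of 14 genes were called higher and none lower, beside 5.97% and 5.48% of all tested genes, with 13 of 14 fold changes above 0 (8195 of 16290 over all tested genes) and a median of 0.79. Without Apatinib 2 the median was 0.13, with 10 of 14 above 0, and that of the 10 ER genes in the same fit was also 0.13. The difference between the lists was not tested. No gene of this arm was lower at an unadjusted edgeR p under 0.05, and DESeq2 called 0 lower. Without Apatinib 2 the same 4 genes (ASNS, ATF4, NUPR1 and TRIB3) were called higher, beside 1493 of 16762 genes called in all. The 4 calls were 2 (ASNS and NUPR1) without control 1 or without control 2, and 7 without Apatinib 3 (2030 of 16768 genes in all). They were 11 with no filter on low counts and 9 with a block for the replicate number. Over all genes these fits called 2559 of 32596 and 2215 of 16290. ATF4, the transcription factor of this arm and of the amino acid response, was at 416, 473 and 366 CPM in the Apatinib samples and at 245, 246 and 283 CPM in the controls. It rose by a log2 fold change of 0.70 (FDR = 0.0104 with edgeR), and its call was lost without control 1 (FDR = 0.0721) or control 2 (0.0711). Asparagine synthetase, ASNS, rose by 1.70 (FDR = 0.00847 with edgeR) and the stress protein gene NUPR1 by 1.89 (FDR = 0.00491 with edgeR) on the log2 scale, and both were called in every fit with one sample left out. TRIB3, a pseudokinase gene induced by ATF4, rose by 1.54 (FDR = 0.0268 with edgeR), or by 0.81 without Apatinib 2, and lost its call without control 1 (FDR = 0.0850) or control 2 (0.0730) and with DESeq2 (0.0618) or limma on log2(FPKM + 1) (0.0856). The counts of DDIT3, which encodes the factor CHOP, were 277, 768 and 187 in the Apatinib samples and 265, 241 and 274 in the controls. Its log2 fold change of 0.77 (FDR = 0.205 with edgeR) came from Apatinib 2 and was -0.03 without it. DDIT3 overlaps exons of MARS and MBD6 on the opposite strand, so its counts are uncertain.

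**Figure D5:**
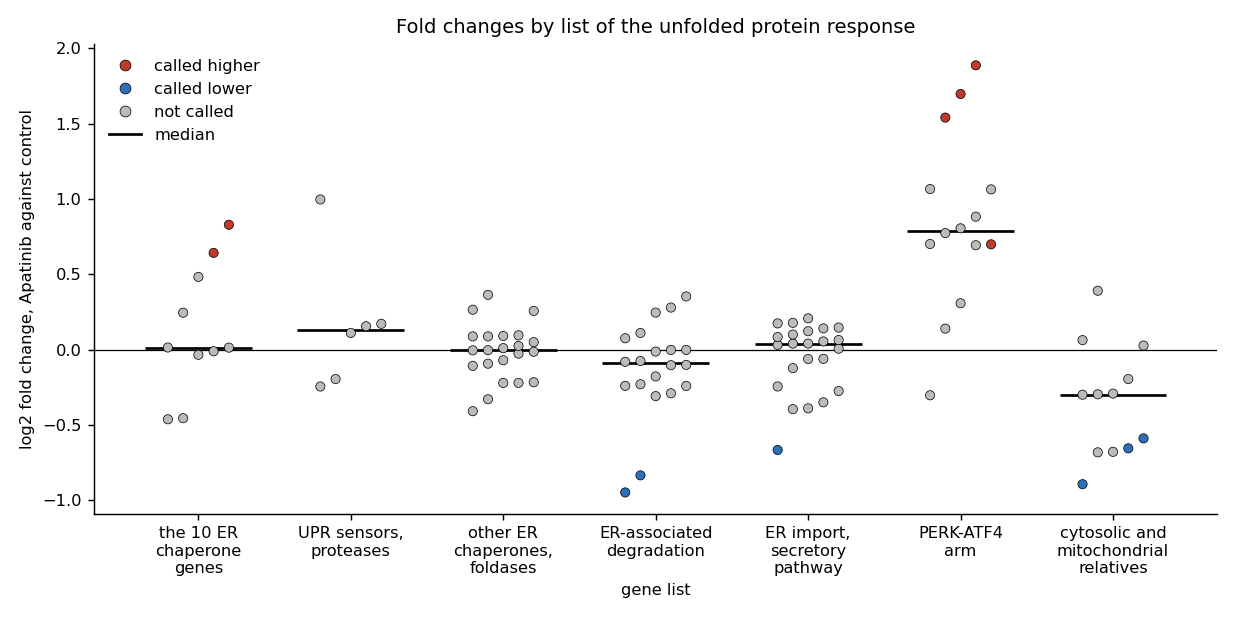
Log2 fold change of every tested gene in the 10 ER chaperone genes, the 5 lists of the response and the cytosolic and mitochondrial relatives, with red for called higher, blue for called lower and a line for the median. The median of the PERK-ATF4 arm is 0.79 with all samples and 0.13 without Apatinib 2. The same 4 genes of this arm are called higher in both fits. The median of the other ER chaperones is -0.0048.

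Chaperone genes outside the ER, of the HSP70, HSP90 and J-domain families and the mitochondrial chaperonin pair HSPD1 and HSPE1, made up a list of 12. With edgeR 3 were called lower and none higher, against 5.97% higher and 5.48% lower of all tested genes. Among the 10 ER genes 2 were called higher and none lower. These 2 were XBP1, a transcription factor, and HERPUD1, a membrane protein of ER-associated degradation. No chaperone among the 10 was called. The log2 fold changes of the genes not called there ran from -0.46 (HSP90B1) to 0.48 (DNAJB9). The difference between the lists was not tested. The median log2 fold change of the 12 genes outside the ER was -0.30, or -0.51 without Apatinib 1. The 3 calls were 0 without control 1, without control 2 or with these summed, and 1 (HSP90AA1) without Apatinib 2. No gene of the list was higher at an unadjusted p under 0.05, and DESeq2 called 3 lower and 0 higher. The cytosolic HSP90 gene HSP90AA1, counterpart of HSP90B1, was at 969, 793 and 1336 CPM in Apatinib replicates 1, 2 and 3 and at 2024, 2081 and 1656 CPM in the controls. It fell by 0.89 on the log2 scale (FDR = 0.0137 with edgeR), with its call lost without control 1 (FDR = 0.0673) or control 2 (0.0711). The J-domain gene DNAJA1 fell by 0.66 (FDR = 0.0222 with edgeR) and the mitochondrial chaperonin gene HSPD1 by 0.59 (FDR = 0.0199 with edgeR). Both lost their calls without control 1 (FDR = 0.0904 and 0.0914) or control 2 (0.0989 and 0.103), DNAJA1 also without Apatinib 2, where its log2 fold change was -0.49, and HSPD1 also without Apatinib 1 (FDR = 0.0529) and without Apatinib 2 (-0.48).

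The HSP70 relatives of HSPA5 were not called, although HSPA8 was called lower with no filter on low counts (-0.67, FDR = 9.944e-05 with edgeR). HSPA8, the constitutive cytosolic HSP70, was at 1289, 372 and 1259 CPM in Apatinib replicates 1, 2 and 3 and at 1457, 1555 and 1665 CPM in the controls. Apatinib 2 was far below the other samples, and the log2 fold change of -0.68 (FDR = 0.203 with edgeR) was -0.29 without it. HSPA9, the mitochondrial HSP70, was highest in the same library, at 1204 CPM against 705 and 735 CPM in Apatinib 1 and 3 and 699, 699 and 618 CPM in the controls, with a log2 fold change of 0.39 (FDR = 0.188 with edgeR), or 0.11 without Apatinib 2. The heat-inducible pair HSPA1A and HSPA1B, which are nearly identical and can share reads, had log2 fold changes of -0.20 and -0.30 (FDR = 0.690 and 0.582 with edgeR), which were 0.14 and 0.08 without Apatinib 2. HSPA4 (-0.30, FDR = 0.105 with edgeR), HSP90AB1 (-0.29, 0.162), TRAP1 (0.03, 0.920), DNAJB1 (0.06, 0.829) and HSPE1 (-0.68, 0.0841) were not called either. Without Apatinib 1, TRAP1 was at -0.05 and DNAJB1 at -0.10, and TRAP1 was at -0.0030 without Apatinib 3. Without Apatinib 2, HSP90AB1 was at -0.19 and HSPE1 at -0.44, while HSPE1 was called lower without Apatinib 3 (-0.99, FDR = 0.0272 with edgeR). On the opposite strand, exons of HSPE1 overlap those of HSPD1, exons of DNAJB1 those of TECR, exons of TRAP1 those of DNASE1 and exons of HSP90AA1 those of WDR20, so that their counts are uncertain.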

How the data were processed

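RNA of 3 Apatinib and 3 control samples of SW872 cells was measured by RNA sequencing on an Illumina platform. The authors deposited counts per gene without normalization, in whole numbers over 57773 genes, and deposited FPKM values per sample, which relate fragments to transcript length and library size. The submitters' processing notes name CASAVA, STAR 2.7.1a and the build hg19. The counting program, annotation and strand setting are not given in the sources used here. The table of Apatinib 1 carries 1 further column, headed with a control's label, which was left out.

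Samples were grouped by their labels. Counts were fitted with edgeR 4.0.16 in R 4.3.3 (TMM, filterByExpr, quasi-likelihood F test, Benjamini-Hochberg adjustment over the 16290 tested genes). Genes with FDR under 0.05 and a log2 fold change beyond 0.5 in either direction were called, the limits the study used. Standard errors were derived from the F statistic. DESeq2 1.42.0, the program of the study in another version, and limma 3.58.1 on FPKM served as alternatives, with other scalings, filters and call rules, a replicate block, controls 1 and 2 summed, and each sample left out in turn. The fit was tested on simulated data. The study describes its samples as biological replicates. Pairs of samples were compared by chi-square over genes with at least 50 counts.

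The members and lists were chosen with earlier results of these data known, so no test over a list and no p for a score over the members is given. Named were all 10 members, the called genes of the 5 pathway lists (up to 25 by smallest p), the 12 relatives, DDIT3, ATF4, ATF6, ERN1 and EIF2AK3, and the 5 genes of at least 10 CPM with the smallest root mean square difference from HSPA5. DNAJC10 and SIL1, the ends of a range, the marker genes and the genes with matched motifs or overlapping exons were named beside these, and every marker that was called, after its values were seen. The members' mean without XBP1 and HERPUD1 was added after seeing the data. Older symbols in the table were matched to current ones. Overlapping exons were looked up by name in GENCODE 29 (GRCh38), and promoter windows by symbol in the RefSeq table (GRCh38.p14), with no coordinates carried over from hg19. Motifs were searched on both strands, and 60 of the 71 genes of the 4 ER lists had a window.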

Additional observations from a re-analysis of the deposited data

How the results depend on the processing

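Direction and call of XBP1 and HERPUD1 were kept under DESeq2, RLE scaling, total counts, both other filters and the replicate block. The genes called were 796 with limma on log2(FPKM + 1), 810 on log2(FPKM + 0.1), 9 on log2(FPKM + 1) with no filter, 74 with glmTreat against the fold change limit and 292 with controls 1 and 2 summed, and 275 to 2594 when one sample was left out. Of the 10 members, 1 was called with either filtered limma fit (XBP1) and 0 with the unfiltered one, with glmTreat or with the controls summed, and 0 to 4 with one sample left out. With the FDR limit alone DNAJC3 was added, for 3. The 7 calls among the other genes of the response were 15 with no filter on low counts, 13 with the replicate block, 3 with both filtered limma fits, 0 with the unfiltered one, 1 with glmTreat, 2 with the controls summed and 2 to 12 with one sample left out. With edgeR and no filter, 2559 of 32596 genes were called in all. The deviations of same-numbered samples from their group means had correlations of -0.259, 0.081 and -0.220. Controls 1 and 2 were too alike for these values to tell their partners apart. Whether the replicate number pairs the samples was therefore not decided. The replicate block, with 2215 genes called in all against 1866 without it, changed no call of a member. With the block the FDR of DNAJC3 was 0.0745, and ERN1 (0.76) was called higher and HSPA8 (-0.86) and HSPE1 (-0.73) lower. With no filter HSPE1 (-0.67) was called lower and ERN1 (1.01) and DDIT3 (0.79) higher, and the relatives called were 5 in both fits. No relative was called with the unfiltered limma fit, with glmTreat or with the controls summed. The median of the members stayed within the spread of the Apatinib replicates (0.173) throughout, between -0.06 and 0.15 with one sample left out. Signs turned only for members near 0. SDF2L1 and CALR were at -0.0070 and -0.0069 with total counts, -0.0179 and -0.0151 with the replicate block, -0.0677 and -0.0316 with the controls summed, -0.0016 and -0.0060 with limma on log2(FPKM + 1), filtered or not, and -0.0036 and -0.0060 on log2(FPKM + 0.1). EDEM1 was at 0.0011 with no filter, 0.0104 with limma on log2(FPKM + 1), filtered or not, and 0.0111 on log2(FPKM + 0.1). With one sample left out, SDF2L1 lay between -0.19 and 0.25, CALR between -0.17 and 0.20, PDIA4 between -0.15 and 0.061 and EDEM1 between -0.041 and 0.022. The causes were not tested.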
